A study of Mus musculus with 14 samples.

Results

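The chemokine ligands are small secreted or membrane-bound proteins that guide leukocytes, and 42 of them have a row in this series of mouse neck skin transcriptomes. The 35 described here were chosen by gene symbol, with earlier results of these data known. They are every row named as a Ccl, Cxcl, Cx3cl1, Xcl1, Pf4 or Ppbp gene except Cxcl13, Ccl2, Ccl7, Ccl8, Ccl11, Ccl12 and Ccl24. The whole table holds 35327 gene symbols. Of the 35 ligands, 33 had enough counts to be tested. Ccl26 had no count in any of the 14 libraries, and Ccl21d had counts in isotype library 3 only, at 15.6 CPM (counts per 1e6 counts, scaled between libraries).

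The libraries, each from 1 mouse according to the series' text, were made from polyadenylated RNA of cryosectioned neck skin of mice labelled female. MAR1-labelled mice (3 libraries, C57BL/6J, 6 weeks old) received MAR1, which binds the IgE receptor's alpha chain (FceRIa) and serves to deplete basophils, and isotype mice (3 libraries, C57BL/6J, 6 weeks old) received a control antibody. Both were injected intraperitoneally with 20 µg every other day, 3 times before MC903 and on through it. The cKO mice (3 libraries, C57BL/6J Pdgfra-CRE/Il4rafl/fl, 6 to 7 weeks old) carry a Cre driven by Pdgfra, a gene of fibroblasts and other mesenchymal cells, together with a floxed gene for the interleukin-4 receptor alpha chain. The fl/fl mice (3 libraries, C57BL/6J Il4rafl/fl, 6 to 7 weeks old) carry the floxed gene without a Cre listed, and neither of these groups was injected. All 4 groups were treated with the vitamin D analogue MC903, or calcipotriol, which brings on a dermatitis, 1 nmol in 100 µL ethanol a day for 6 days. The untreated mice (2 libraries, C57BL/6J, 6 weeks old) had neither MC903 nor injections according to their labels, and the names of their libraries differ only by a suffix, so that whether they come from different mice is not stated. No group is labelled as vehicle-treated, so in comparisons with untreated skin MC903 cannot be told apart from its ethanol. For the MAR1-labelled and isotype groups the injections cannot be told apart from it either. For the cKO and fl/fl groups the same holds for genotype and age range.

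Chemokines bind G protein-coupled receptors on leukocytes and are held on cell surfaces by glycosaminoglycans, so that a gradient of ligand directs migration. Homeostatic members are made in resting tissue: CCL27 by keratinocytes, CXCL12 by stromal cells, CCL21 by lymphatic vessels. Inflammatory members are induced by cytokines and microbial products, and they sort by receptor into groups that draw neutrophils, interferon-linked T cells, monocytes or type 2 lymphocytes.

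Several facts about the libraries stand beside all that follows. Total counts, in units of 1e6, were 5.73 to 10.6 in MAR1-labelled, 34.3 to 35.6 in isotype, 16.5 to 30.8 in cKO, 45.1 to 48 in fl/fl and 37.5 and 55.3 in untreated libraries. The 1946 olfactory and vomeronasal receptor genes, which skin is not known to use, took 3.88 to 9.38% of counts in MAR1-labelled libraries, against 0.269 to 0.439% in isotype libraries, and 0.467 to 2.58% in cKO libraries, against 0.0479 to 0.0769% in fl/fl libraries. Mcpt8, a protease gene of basophils, measured 18, 31.2 and 27.4 CPM in MAR1-labelled libraries, against 6.71, 4.41 and 3.97 CPM in isotype libraries. Its rise (log2 fold change 2.34, adjusted p = 0.024) goes against the label, whereas Fcer1a, the chain that MAR1 binds, fell (log2 fold change -3.57, adjusted p = 0.026). Of 8 mast cell and basophil markers, these 2 genes among them, 2 rose and 4 fell in MAR1-labelled against isotype skin. Over all genes 22.6% rose and 26.5% fell there. The 8 markers summed to 640 to 884 CPM in MAR1-labelled libraries, against 957 to 1199 CPM in isotype libraries. Il4ra measured 70.7, 67.9 and 14.5 CPM in cKO libraries, against 215, 145 and 176 CPM in fl/fl libraries (log2 fold change -1.81, adjusted p = 0.043), and the table does not say which exons were deleted. Libraries 1 and 2 of the fl/fl group held transcripts of salivary gland, with Bpifa2 at 733 and 10949 CPM against 0.118 CPM in fl/fl library 3. All fl/fl libraries, library 3 included, were high in 8 skeletal muscle markers, which summed to 55377, 14646 and 9462 CPM. The sums were 18.7 to 2590 CPM in cKO, 1103 to 1530 CPM in isotype and 490 to 3097 CPM in MAR1-labelled libraries. In untreated libraries they were 1660 and 11899 CPM. Of the 8 markers 5 fell in cKO against fl/fl skin. The cKO library 1, labelled female, held the Y-linked Ddx3y at 69.9 CPM.

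The promoters of 6 members that the results turn on are printed here. Of these genes 4 moved with a treatment in different directions, and the printed windows of the Ccl27 pair are nearly identical. RefSeq windows (mouse build GRCm38.p6, 250 bases before to 50 bases after a start site) were found for 27 of the 35 members, 33 windows in all. Capitals mark matches, on either strand, to the NF-kappaB consensus and to GAAANNGAAA, TTCNNNGAA and TTCNNNNGAA, which are letter patterns close to sites of interferon-regulated and STAT factors.
Ccl27a, chr4:41770163-41770462, minus strand: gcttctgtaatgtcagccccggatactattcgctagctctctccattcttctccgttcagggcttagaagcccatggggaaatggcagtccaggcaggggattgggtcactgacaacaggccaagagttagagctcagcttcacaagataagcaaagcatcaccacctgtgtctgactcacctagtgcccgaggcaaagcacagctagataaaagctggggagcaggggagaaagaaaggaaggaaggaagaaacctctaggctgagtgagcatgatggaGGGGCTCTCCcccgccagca
Ccl27b, chr4:42655001-42655300, plus strand: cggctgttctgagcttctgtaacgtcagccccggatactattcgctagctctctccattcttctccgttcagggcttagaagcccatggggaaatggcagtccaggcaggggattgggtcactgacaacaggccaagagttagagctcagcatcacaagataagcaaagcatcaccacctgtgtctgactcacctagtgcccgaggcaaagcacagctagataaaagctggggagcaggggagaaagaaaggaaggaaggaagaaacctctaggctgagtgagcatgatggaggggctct
Cxcl14, chr13:56296502-56296801, minus strand: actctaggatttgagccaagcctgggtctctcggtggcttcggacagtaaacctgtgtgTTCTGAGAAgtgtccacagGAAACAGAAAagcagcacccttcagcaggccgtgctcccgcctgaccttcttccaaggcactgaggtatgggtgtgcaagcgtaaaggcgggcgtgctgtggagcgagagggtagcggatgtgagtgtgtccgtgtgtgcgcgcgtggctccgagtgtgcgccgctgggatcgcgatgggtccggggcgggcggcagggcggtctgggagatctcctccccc
Cxcl1, chr5:90890995-90891294, plus strand: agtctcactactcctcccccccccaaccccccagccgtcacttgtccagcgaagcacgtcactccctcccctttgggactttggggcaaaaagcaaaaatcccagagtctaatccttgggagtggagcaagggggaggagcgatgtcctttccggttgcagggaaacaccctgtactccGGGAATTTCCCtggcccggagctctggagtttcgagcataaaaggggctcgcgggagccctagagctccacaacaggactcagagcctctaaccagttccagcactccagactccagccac
Cxcl9, chr5:92328030-92328329, minus strand: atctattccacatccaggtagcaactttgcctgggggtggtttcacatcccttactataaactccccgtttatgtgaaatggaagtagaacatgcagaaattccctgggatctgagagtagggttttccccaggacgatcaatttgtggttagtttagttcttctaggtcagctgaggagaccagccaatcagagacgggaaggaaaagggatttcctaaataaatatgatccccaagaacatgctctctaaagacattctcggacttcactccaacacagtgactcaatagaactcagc
Cxcl10, chr5:92348840-92349139, minus strand: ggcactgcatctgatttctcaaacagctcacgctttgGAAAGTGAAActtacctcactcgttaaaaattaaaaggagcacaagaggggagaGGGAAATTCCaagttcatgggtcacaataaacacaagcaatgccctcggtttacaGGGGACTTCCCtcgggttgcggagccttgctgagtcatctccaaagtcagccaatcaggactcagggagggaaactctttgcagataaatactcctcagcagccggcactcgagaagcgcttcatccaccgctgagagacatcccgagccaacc
The printed Ccl27a and Ccl27b windows had 286 identical bases of 288 aligned (99.3%). The NF-kappaB match marked in Ccl27a falls where the Ccl27b window ends part-way through the same letters. Both genes have further RefSeq windows, at other start sites, that were not aligned. In Cxcl1 the NF-kappaB match GGGAATTTCC began 71 bases before the start site and overlapped its own reverse-strand match, and the same letters stood 97 bases before the start of Cxcl2 and 73 bases before that of Cxcl3. Cxcl10 held GGGAAATTCC at 159 bases and the overlapping GGGGACTTCC and GGGACTTCCC at 104 and 103 bases before its start, with GAAAGTGAAA at 213 bases. No pattern matched in the Cxcl9 window. The NF-kappaB consensus matched in 8 members and in 8.46% of all 32851 RefSeq windows, GAAANNGAAA in 3 members and 3.44%, TTCNNNGAA in 2 members and 8.3%, and TTCNNNNGAA in 1 member and 6.95%. A match is a run of letters and not a measured binding site.

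The calls among the 33 tested ligands are given beside the share of all genes called in the same comparison, which differs widely between comparisons. A call is an adjusted p under 0.05 in the edgeR quasi-likelihood test over all 20939 genes tested. In isotype against untreated skin 1 ligand rose and 2 fell, where 3.08% of all genes were called, 1.35% upward and 1.72% downward. In fl/fl against untreated skin 1 rose and 2 fell, against 0.769% and 0.95% (1.72% in either direction). In both comparisons the 2 that fell were Ccl27a and Ccl27b, near-identical copies that gave 1 call when summed. In MAR1-labelled against untreated skin 3 rose and 8 fell, against 23.4% and 25.9% (49.4%), and in cKO against untreated skin 2 rose and 3 fell, against 3.86% and 2.96% (6.82%). MAR1-labelled against isotype skin had 3 risen and 6 fallen ligands, against 22.6% and 26.5% of all genes (49%), so that the count of ligands is no sign of a change beyond that of the genes at large. Scaling moved the direction of calls over all genes: 4723 rose and 5547 fell in MAR1-labelled against isotype skin, against 6346 and 3645 with RLE scaling. In cKO against fl/fl skin 0 rose and 4 fell, against 12.7% and 5.97% (18.7%). Between the control groups, fl/fl against isotype skin, 3 rose and 0 fell, against 1.25% and 3.97% (5.22%). The difference between the cKO effect and the MAR1 effect was called in 1 ligand upward and 2 downward, against 6.14% and 1.82% (7.96%). In cKO against fl/fl skin 9 of the 33 ligands had an unadjusted p under 0.05 in either direction, as had 7356 of all 20939 genes. In fl/fl against isotype skin 6 of the 33 ligands had one, as had 5079 of all genes. The median log2 fold change of the ligands was -0.49 in MAR1-labelled against isotype skin (0 over all genes) and -0.98 in cKO against fl/fl skin (0.03 over all genes). When the log2 share of counts in the receptor genes named above was a term of the fit, 0 ligands were called in either comparison. That share does not overlap between MAR1-labelled and isotype libraries, nor between cKO and fl/fl libraries. The share therefore cannot be told apart from the antibody in the first comparison, or from the genotype in the second. In bulk skin, fewer cells of a type and less RNA per cell cannot be told apart.

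Groups without overlap were counted too. In isotype against untreated skin 7 ligands lay higher and 12 lower in every library, where 26.2% and 22.6% of all genes did. For fl/fl against untreated skin 8 lay higher and 6 lower (12.6% and 15.4% of all genes), in MAR1-labelled against untreated skin 9 and 13 (33% and 36.5%), and in cKO against untreated skin 3 and 11 (20.9% and 22%). MAR1-labelled against isotype skin had 7 higher and 5 lower (32.1% and 36.4%), cKO against fl/fl skin 1 and 6 (17% and 12.4%) and fl/fl against isotype skin 0 and 1 (12% and 20.5%).

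**Figure D1:**
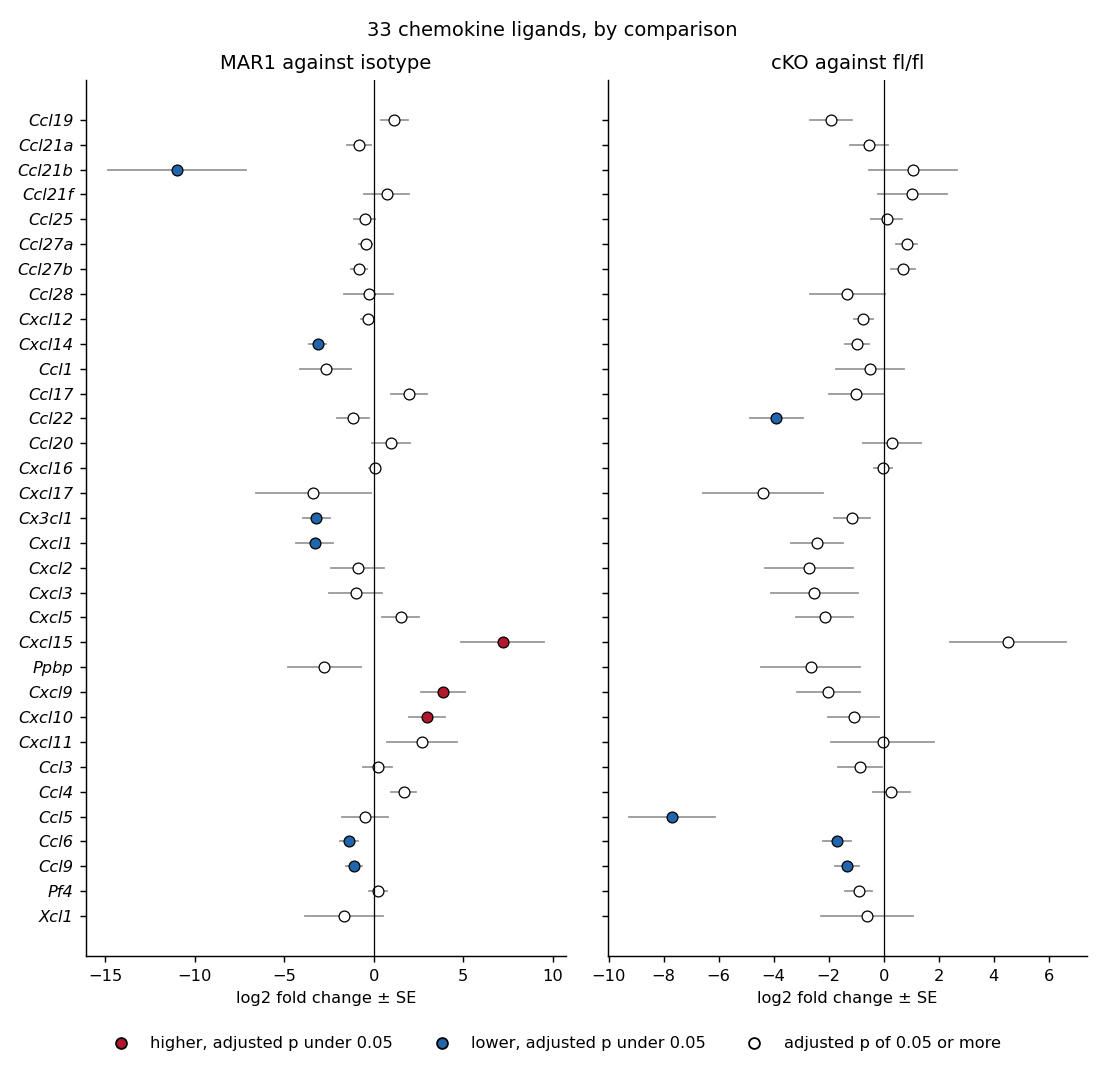
Log2 fold changes (x axis, ± SE) of the 33 tested ligands, in order of role from homeostatic at the top to Xcl1 at the bottom, in MAR1-labelled against isotype skin (left) and cKO against fl/fl skin (right). Filled points have an adjusted p under 0.05: 3 higher and 6 lower on the left, 4 lower on the right.

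Ccl27a and Ccl27b, the skin chemokines that draw T cells bearing CCR10, were lower in each MC903-treated group than in untreated skin. Ccl27a measured 13.9, 12.8 and 11.7 CPM in MAR1-labelled, 13.6, 10.6 and 28.1 CPM in isotype, 41.5, 34.4 and 25.1 CPM in cKO and 21.8, 23 and 12.1 CPM in fl/fl libraries, against 123 and 102 CPM in untreated libraries. All 12 treated libraries were under both untreated ones. The log2 fold change was -3.13 ± 0.42 (SE) in MAR1-labelled (adjusted p = 0.00021), -2.69 ± 0.41 in isotype (0.0054), -1.74 ± 0.40 in cKO (0.026) and -2.57 ± 0.41 in fl/fl skin (0.0088), all against untreated skin. Ccl27b measured 7.56, 6.95 and 4.51 CPM in MAR1-labelled, 8.39, 7.15 and 17.8 CPM in isotype, 38.2, 18.6 and 15.4 CPM in cKO and 16, 19.8 and 8.75 CPM in fl/fl libraries, against 94.4 and 105 CPM in untreated libraries. Its log2 fold changes were -3.97 ± 0.51 (0.00018), -3.16 ± 0.49 (0.0062), -2.05 ± 0.48 (0.028) and -2.74 ± 0.49 (0.013) in the same order of groups. The fall was 8.77-fold and 15.6-fold for Ccl27a and Ccl27b in MAR1-labelled skin and 6.46-fold and 8.96-fold in isotype skin.

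Reads of the Ccl27 copies cannot be assigned with certainty, since Ccl27a and Ccl27b transcripts share 76.5% of the 31-base words of the shorter one. Summed with Ccl27al, they measured 19.2 ± 2.79 CPM in MAR1-labelled, 28.7 ± 15.1 CPM in isotype, 58.1 ± 19.9 CPM in cKO, 34.2 ± 11.6 CPM in fl/fl (SD, n = 3 each) and 213 ± 7.36 CPM in untreated libraries (n = 2). The sum was lower than in untreated skin in all 4 treated groups (log2 fold changes -3.46, -2.89, -1.87 and -2.64, adjusted p = 0.00017, 0.005, 0.024 and 0.0097). It did not differ beyond the spread in MAR1-labelled against isotype skin (-0.57, adjusted p = 0.22) or in cKO against fl/fl skin (0.77, 0.16). Ccl27a alone was higher in every cKO library than in every fl/fl library. That rise was called only without MAR1-labelled library 2, cKO library 2 or untreated library 2. Leaving out any of these moved the median of all genes in that comparison up by 0.38 to 0.45. Keratinocytes make this chemokine, and of the 7 keratinocyte markers measured 0 rose and 3 fell in MAR1-labelled (Krt5, Krt10 and Krt15), 2 rose (Flg and Krt14) and 1 fell (Krt15) in isotype, 2 rose and 0 fell in cKO, and 1 rose (Flg) and 1 fell (Krt15) in fl/fl skin, all against untreated skin. Their summed level was 3184 to 6454 CPM in MAR1-labelled, 18937 to 36928 CPM in isotype, 16917 to 32574 CPM in cKO and 5006 to 40514 CPM in fl/fl libraries, against 20494 and 6958 CPM in untreated libraries. The part of these cells in the Ccl27 values was not tested. Without any 1 library the calls in MAR1-labelled and isotype skin held for both copies. The cKO calls were lost without cKO library 2 or 3, either untreated library or MAR1-labelled library 2 (adjusted p 0.068 to 0.17 for Ccl27a, 0.065 to 0.13 for Ccl27b), and the Ccl27b call in fl/fl skin was lost without untreated library 2 (0.074). With the untreated libraries summed to 1, the calls were lost in isotype (0.053 for each copy) and cKO skin (0.12 for each), and fits of only the groups compared lost them in fl/fl (0.24 for each) and cKO skin (0.082 and 0.1).

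Cxcl14, a chemokine of resting epithelium and stroma, was lower in MAR1-labelled than in isotype or untreated skin. It measured 18.4, 17.9 and 10.1 CPM in MAR1-labelled, 148, 67.7 and 191 CPM in isotype, 54, 55.7 and 32.1 CPM in cKO, 61.8, 100 and 118 CPM in fl/fl, and 279 and 121 CPM in untreated libraries. The MAR1-labelled libraries lay under all 11 others, and the cKO libraries lay under all fl/fl libraries. The log2 fold change was -3.13 ± 0.47 (8.76-fold lower, adjusted p = 0.00034) in MAR1-labelled against isotype skin and -3.69 ± 0.50 (0.00021) against untreated skin. In cKO skin it was -2.08 ± 0.48 (0.026) against untreated skin and -0.98 ± 0.43 against fl/fl skin, where the adjusted p of 0.12 missed the threshold. The difference between the cKO effect and the MAR1 effect was 2.15 ± 0.62 (0.048), lost with RLE scaling (1.70, 0.094), in a fit of only the groups compared (0.065) and without fl/fl libraries 1 and 2 (2.11, 0.17), and also without any of 7 single libraries (0.053 to 0.12), with 2.75 without fl/fl library 3. In MAR1-labelled against isotype skin 6 of 7 keratinocyte markers fell too, with a summed level of 3184 to 6454 CPM in MAR1-labelled libraries, against 18937 to 36928 CPM in isotype libraries, and 4 of 8 fibroblast markers fell while Pi16 rose, with a sum of 1198 to 1765 CPM against 2753 to 3142 CPM. The part of these cells in the Cxcl14 result was not tested. Without any 1 library both MAR1 calls held, at -2.97 against untreated skin without untreated library 1. The cKO call against untreated skin was lost without any cKO library (0.051 to 0.085), untreated library 1 (-1.36, 0.25) or MAR1-labelled library 2 (0.067), in a fit of only the groups compared (0.099) and with the untreated libraries summed (0.097).

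**Figure D2:**
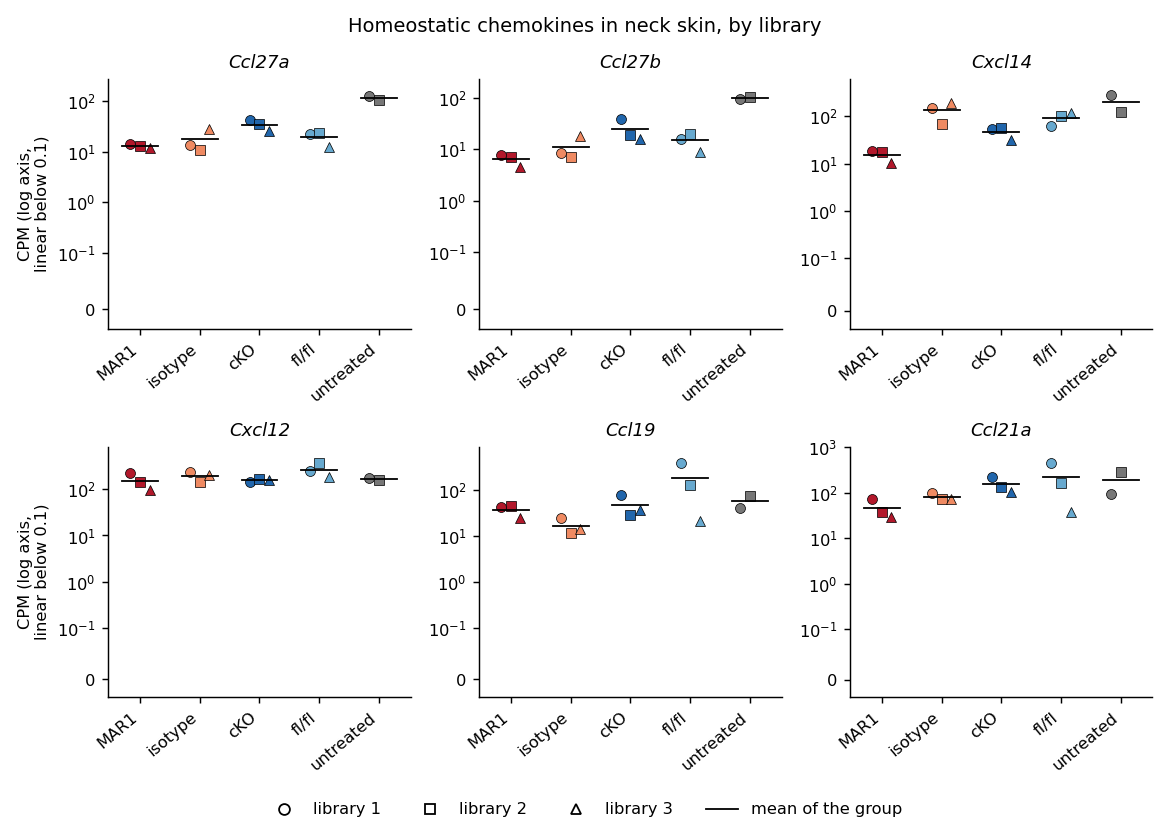
Level (y axis, CPM on a log axis that is linear below 0.1) of 6 homeostatic ligands in the 14 libraries by group (x axis); symbols number the libraries and lines are group means. Ccl27a and Ccl27b are lower in all 12 treated libraries than in both untreated ones, and Cxcl14 is lowest in MAR1-labelled skin, at 10.1 to 18.4 CPM.

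The other homeostatic ligands gave few calls. Cxcl12, which holds CXCR4-bearing cells in tissue, measured 223, 142 and 94.4 CPM in MAR1-labelled, 232, 142 and 207 CPM in isotype, 147, 168 and 162 CPM in cKO, 242, 371 and 188 CPM in fl/fl, and 173 and 156 CPM in untreated libraries, and it was called in no comparison. All 3 cKO libraries were under all fl/fl libraries (log2 fold change -0.75 ± 0.35, adjusted p = 0.14). Ccl25, a chemokine of thymus and gut that binds CCR9, ranged over 1.81 to 4.85 CPM and Ccl28, a mucosal ligand of CCR10 and CCR3, over 0 to 2.28 CPM, without a call. Ccl19, which with CCL21 draws CCR7-bearing dendritic cells and T cells, measured 41.1, 45 and 24.6 CPM in MAR1-labelled, 24.4, 11.5 and 14.2 CPM in isotype, 76.7, 28.5 and 35.5 CPM in cKO, 381, 128 and 20.6 CPM in fl/fl, and 40.6 and 73.8 CPM in untreated libraries. It was higher in fl/fl than in isotype skin (log2 fold change 3.40 ± 0.80, adjusted p = 0.039), a call that rested on fl/fl libraries 1 and 2: without them the value was 0 (adjusted p = 1), and without library 1 alone 1.75 (0.14). That call was also lost without fl/fl library 2, any isotype library or any MAR1-labelled library (0.052 to 0.12). It was lost too with no filter on low counts (0.06) and in a fit of only the groups compared (0.094). DESeq2 and a fit of only the groups compared called Ccl19 in MAR1-labelled against isotype skin. Such a fit also called Ccl19 in isotype against untreated skin. Without fl/fl library 3 edgeR called Ccl19 in cKO against fl/fl skin.

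Ccl21, the ligand on lymphatic vessels, is counted over near-identical copies, and Ccl21a shares 83.3% of the 31-base words of Ccl21b. Ccl21a measured 73.1, 38.3 and 29 CPM in MAR1-labelled, 101, 71.7 and 73 CPM in isotype, 222, 135 and 103 CPM in cKO, 463, 164 and 38.7 CPM in fl/fl, and 96.4 and 292 CPM in untreated libraries. Ccl21b measured 0 CPM in all 3 MAR1-labelled libraries, 7.71, 17.6 and 0 CPM in isotype, 42.4, 34.6 and 0 CPM in cKO, 11.1, 19.5 and 6.5 CPM in fl/fl, and 29.7 and 80.6 CPM in untreated libraries. Ccl21f measured 33.9, 11.5 and 14.3 CPM in MAR1-labelled, 22.7, 6.74 and 6.55 CPM in isotype, 37.2, 17.9 and 38.3 CPM in cKO, 33.7, 11.6 and 0 CPM in fl/fl, and 3.3 and 21.6 CPM in untreated libraries. Isotype library 3 had Ccl21d and no Ccl21b, so the split among copies is uncertain. Ccl21b was at least 25-fold lower in MAR1-labelled than in isotype skin and at least 164-fold lower than in untreated skin, with 3 counts per library as the floor (adjusted p = 0.036 and 0.012). The summed copies measured 66.7 ± 35.1 CPM in MAR1-labelled, 108 ± 20.7 CPM in isotype, 210 ± 82.5 CPM in cKO, 249 ± 236 CPM in fl/fl (SD, n = 3 each) and 262 ± 187 CPM in untreated libraries (n = 2). The sum was lower in MAR1-labelled than in untreated skin (-1.97 ± 0.74, adjusted p = 0.042) and was not called against isotype skin (-0.69, 0.4). Ccl21a alone fell against untreated skin (-2.05, 0.038), a call lost without untreated library 2 (-0.54, 0.66), MAR1-labelled library 2 (0.17) or 3 (0.11), cKO library 2 (0.086) or isotype library 3 (0.05), and at -2.64 without untreated library 1. It was also lost with RLE scaling (-1.50, 0.1), DESeq2 (0.083), no filter on low counts (0.062) and the untreated libraries summed (0.12). The Ccl21b call against isotype skin was lost without any MAR1-labelled library, isotype library 1 or 2, fl/fl library 1 or 3, or either untreated library (0.05 to 0.087) and with no filter (0.1), and against untreated skin without untreated library 2 (0.054). Of 6 lymphatic endothelial markers 2 fell (Lyve1 and Mmrn1) in MAR1-labelled against isotype skin, with a summed level of 106 to 114 CPM against 156 to 181 CPM, and their part in these values was not tested.

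Among the ligands that draw neutrophils through CXCR2, Cxcl5 rose in every MC903-treated group. It measured 63, 14.4 and 7.21 CPM in MAR1-labelled, 15.4, 4.5 and 10.1 CPM in isotype, 1.35, 11 and 7.66 CPM in cKO and 7.48, 66.8 and 14.5 CPM in fl/fl libraries, against 0.159 and 0 CPM in untreated libraries. All 12 treated libraries were above both untreated ones. Against untreated skin the log2 fold change was 8.30 ± 1.74 in MAR1-labelled (adjusted p = 0.0023), 6.80 ± 1.64 in isotype (0.044), 6.21 ± 1.61 in cKO (0.04) and 8.36 ± 1.74 in fl/fl skin (0.032), estimates that depend on 9 counts in untreated library 1 and 0 in library 2. Without untreated library 1 they were 12.63, 11.14, 10.55 and 12.70, against a group at 0. The MAR1 call held without any 1 library. The isotype call was lost without either untreated library, any isotype library, MAR1-labelled library 2 or cKO library 3 (0.054 to 0.15). The cKO call was lost without either untreated library, cKO library 3, any isotype library or MAR1-labelled library 2 (0.053 to 0.15). The fl/fl call was lost without untreated library 2 (7.44, 0.22), fl/fl library 3 (0.05) or isotype library 3 (0.057), and was at 6.94 without fl/fl library 2. With no filter or with the untreated libraries summed the isotype (0.097 and 0.24), cKO (0.074 and 0.14) and fl/fl calls (0.073 and 0.096) were lost, as were the cKO and fl/fl calls in fits of only the groups compared (0.13 and 0.32). The MAR1 value was 6.93 without MAR1-labelled library 1 and 9.10 without library 2. Of 10 neutrophil markers, Stfa2l1 rose against untreated skin in all 4 treated groups and S100a8 and S100a9 in 3. In MAR1-labelled skin 6 of the 10 rose and 1 fell, where 23.4% of all genes rose and 25.9% fell. In isotype skin 1 rose, and in cKO and in fl/fl skin 3 each, with 0 fallen. The markers summed to 518 to 638 CPM in MAR1-labelled, 180 to 258 CPM in isotype and 163 to 270 CPM in cKO libraries. In fl/fl libraries they summed to 110 to 193 CPM, and in untreated libraries to 55.5 and 49.4 CPM. Of these sums Cxcr2 alone made 285 to 549 CPM in MAR1-labelled and 36.6 to 161 CPM in cKO libraries. The part of neutrophils in the Cxcl5 values was not tested.

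Cxcl1, the keratinocyte-derived neutrophil attractant, fell in MAR1-labelled against isotype skin. It measured 0.602, 0.503 and 0.15 CPM in MAR1-labelled, 6.48, 3.72 and 2.63 CPM in isotype, 0.319, 2.62 and 0.53 CPM in cKO, 7.32, 7.39 and 4.02 CPM in fl/fl, and 2.27 and 0.261 CPM in untreated libraries. The MAR1-labelled values are 7, 5 and 1 counts, and they did not overlap the isotype values. The log2 fold change was -3.29 ± 1.03 (9.81-fold lower, adjusted p = 0.018), lost without MAR1-labelled library 2 (0.052) or 3 (0.065) or isotype library 1 (0.058), and with the receptor gene share in the fit it was 0.62 (0.96). All 3 cKO libraries were also under all fl/fl libraries (-2.42 ± 0.95), with an adjusted p of 0.088. DESeq2 called that fall, as did edgeR without cKO library 2. Cxcl2 and Cxcl3, close relatives of Cxcl1, were not called by the edgeR test over all groups, while DESeq2 called Cxcl3 in MAR1-labelled, isotype and fl/fl skin against untreated skin, RLE scaling called it in MAR1-labelled skin, and fits of only the groups compared in MAR1-labelled and isotype skin. Cxcl2, called in MAR1-labelled against untreated skin without untreated library 1, ranged over 1.61 to 2.49 CPM in MAR1-labelled, 3.03 to 4.45 CPM in isotype, 0.106 to 0.294 CPM in cKO, 0 to 3.15 CPM in fl/fl and 0 to 2.8 CPM in untreated libraries. Cxcl3 ranged over 1.01 to 2.75 CPM in MAR1-labelled, 1.55 to 6.91 CPM in isotype, 0 to 0.556 CPM in cKO, 0 to 4.34 CPM in fl/fl and 0 to 0.0886 CPM in untreated libraries. Cxcl15, a chemokine known mainly from mouse lung epithelium, measured 0.0859, 0.705 and 1.05 CPM in MAR1-labelled libraries and 0 CPM in all isotype and fl/fl libraries, 0, 0 and 0.294 CPM in cKO, and 4 and 1.47 CPM in untreated libraries. It was at least 7.09-fold higher in MAR1-labelled than in isotype skin (adjusted p = 0.027), on 1, 7 and 7 counts, and the call was lost without MAR1-labelled library 2 or 3 or any isotype library (0.057 to 0.07). Ppbp, the platelet-stored precursor of neutrophil-activating peptide, ranged over 0 to 3.77 CPM without a call.

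The CXCR3 ligands, which interferon induces and which draw T cells and natural killer cells, were higher in MAR1-labelled than in isotype skin. Cxcl9 measured 13, 12.9 and 14 CPM in MAR1-labelled, 0.885, 0.317 and 1.55 CPM in isotype, 3.58, 1.5 and 2.36 CPM in cKO, 22.4, 7.59 and 0.0296 CPM in fl/fl, and 10 and 10.3 CPM in untreated libraries. The MAR1-labelled and untreated libraries lay close together, and the isotype libraries lay under both. Cxcl10 measured 14, 17.2 and 21.6 CPM in MAR1-labelled, 1.94, 1.27 and 3.54 CPM in isotype, 3.65, 2.68 and 7.36 CPM in cKO, 24.3, 4.4 and 0.355 CPM in fl/fl, and 6.33 and 5.74 CPM in untreated libraries. Against isotype skin the MAR1-labelled log2 fold change was 3.85 ± 1.23 for Cxcl9 (14.4-fold, adjusted p = 0.021) and 2.97 ± 0.99 for Cxcl10 (7.82-fold, 0.025). Cxcl11, their relative with the tightest binding, ranged over 1.89 to 3.52 CPM in MAR1-labelled, 0.0292 to 1.03 CPM in isotype, 0 to 0.589 CPM in cKO, 0 to 0.874 CPM in fl/fl and 0 to 0.261 CPM in untreated libraries, with no call (2.68 ± 1.96 in MAR1-labelled against isotype skin, 0.26). The Cxcl9 call was lost without isotype library 1 (0.064) or 2 (0.077) and was at 4.46 without isotype library 3. The Cxcl10 call was lost without MAR1-labelled library 3 (0.062) or isotype library 1 (0.077) or 2 (0.091). Against untreated skin the edgeR test over all groups called 0 of the 3 ligands in any treated group. Only Cxcl9 in isotype skin had an unadjusted p under 0.05, as had 3759 of all 20939 genes there. DESeq2 called Cxcl9 in isotype skin and Cxcl11 in MAR1-labelled skin. EdgeR fits of only the groups compared called Cxcl9 in isotype and Cxcl10 in MAR1-labelled skin. Without fl/fl library 3 edgeR also called Cxcl9 in isotype skin. Of 10 T cell markers 3 rose (Cd3e, Cd3g and Cd8a) and Cd4 fell in MAR1-labelled against isotype skin, summing to 183 to 313 CPM against 31 to 42.3 CPM. Cxcr3 itself measured 0.172, 0 and 0.15 CPM in MAR1-labelled libraries, against 0.742, 0.807 and 1.02 CPM in isotype libraries. The part of T cells in the ligand values was not tested.

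**Figure D3:**
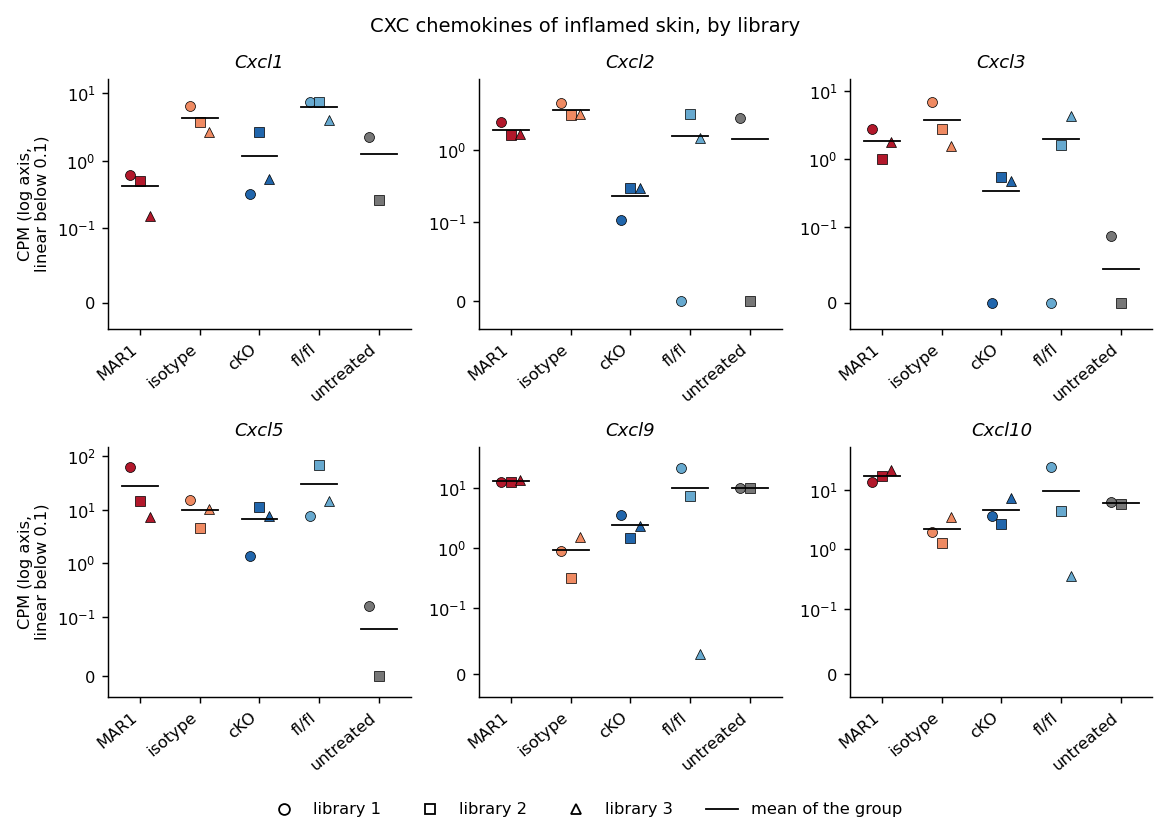
Level (y axis, CPM on a log axis that is linear below 0.1) of 6 CXC ligands in the 14 libraries by group (x axis); symbols number the libraries and lines are group means. Cxcl5 is near 0 in both untreated libraries and above 1 CPM in all treated ones, and Cxcl9 and Cxcl10 are higher in all 3 MAR1-labelled than in all 3 isotype libraries.

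In cKO against fl/fl skin Cxcl9 had a log2 fold change of -2.01 (adjusted p = 0.22), with fl/fl libraries at 22.4, 7.59 and 0.0296 CPM on both sides of all cKO libraries. The difference between the cKO effect and the MAR1 effect on Cxcl9 was -5.86 ± 1.67 (0.048). It was 2.64 (0.29) without fl/fl libraries 1 and 2, and the call was lost on leaving out any 1 library other than fl/fl library 3 and untreated library 2 (0.053 to 0.12). RLE scaling (-6.32, 0.052), no filter (0.067) and a fit of only the groups compared (0.057) also lost it. In a fit with fl/fl library 3 as the sole library of its group, Cxcl9, Cxcl10 and Ccl21f were higher in cKO skin. Such a fit assumes that this library varies like the others. Without fl/fl library 3, edgeR called Cxcl9 as lower in cKO than in fl/fl skin. It then also called Cxcl9 and Cxcl10 as higher in fl/fl than in isotype skin, as DESeq2 on all libraries did for Cxcl9. The direction of the cKO difference thus depended on which fl/fl libraries were kept.

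Among the inflammatory CC ligands, Ccl4 and Ccl3, the macrophage inflammatory proteins that draw monocytes and T cells, rose in MAR1-labelled against untreated skin. Ccl4 measured 14.8, 10.4 and 3.76 CPM in MAR1-labelled, 4.57, 2.22 and 2.34 CPM in isotype, 5.67, 1.34 and 4.83 CPM in cKO and 4.2, 3.53 and 2.07 CPM in fl/fl libraries, against 0.284 and 0.498 CPM in untreated libraries. All 12 treated libraries were above both untreated ones. Against untreated skin its log2 fold change was 4.62 ± 0.94 in MAR1-labelled (adjusted p = 0.0016), 2.95 ± 0.86 in isotype (0.083), 3.33 ± 0.88 in cKO (0.039) and 3.06 ± 0.86 in fl/fl skin (0.086). Ccl3 measured 4.81, 2.82 and 1.5 CPM in MAR1-labelled, 4.37, 1.99 and 1.55 CPM in isotype, 0.709, 0.948 and 2.89 CPM in cKO and 1.88, 4.44 and 1.92 CPM in fl/fl libraries, against 0.443 and 0.309 CPM in untreated libraries. It was called in MAR1-labelled skin (3.01 ± 1.01, 0.024), while the other 3 groups had 2.79 (0.15), 1.99 (0.19) and 2.86 (0.15). DESeq2 called both Ccl3 and Ccl4 in all 4 treated groups against untreated skin. Against isotype skin Ccl4 in MAR1-labelled skin had 1.67 ± 0.69 (0.058), which RLE scaling and DESeq2 called. The MAR1 call of Ccl4 held without any 1 library, at 5.57 without untreated library 2. Its cKO call was lost without cKO library 1 or 3, either untreated library, any isotype library or MAR1-labelled library 2 (0.051 to 0.25), at 4.23 without untreated library 2 and 4.03 without cKO library 2, and it was lost in a fit of only the groups compared (0.16) and with the untreated libraries summed (0.15). The Ccl3 call was lost without MAR1-labelled library 1 (0.058) or either untreated library (0.091 each) and with the untreated libraries summed (0.1).

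Ccl6 and Ccl9, mouse ligands of CCR1 made by macrophages and other myeloid cells, were lower in both the MAR1-labelled and the cKO group than in their controls. Ccl6 measured 165, 58.1 and 25.2 CPM in MAR1-labelled, 285, 144 and 223 CPM in isotype, 102, 101 and 69.2 CPM in cKO, 279, 348 and 264 CPM in fl/fl, and 292 and 321 CPM in untreated libraries. The cKO libraries lay under all fl/fl libraries, and MAR1-labelled library 1 overlapped the isotype range. The log2 fold change of Ccl6 was -1.71 ± 0.51 in cKO against fl/fl skin (3.27-fold lower, adjusted p = 0.034), -1.39 ± 0.51 in MAR1-labelled against isotype skin (0.036) and -1.88 ± 0.55 in MAR1-labelled against untreated skin (0.013). Ccl9 measured 157, 70.9 and 40 CPM in MAR1-labelled, 237, 127 and 208 CPM in isotype, 108, 70.6 and 75.1 CPM in cKO, 205, 265 and 166 CPM in fl/fl, and 222 and 177 CPM in untreated libraries. Its log2 fold change was -1.33 ± 0.43 in cKO against fl/fl skin (2.51-fold lower, 0.046) and -1.09 ± 0.43 in MAR1-labelled against isotype skin (0.048). Of 8 macrophage markers 4 fell in cKO against fl/fl skin (C1qb, C1qc, Cd68 and Csf1r), with summed levels of 684 to 795 CPM against 1227 to 1562 CPM. The same 4 and Cd163 fell in MAR1-labelled against isotype skin, where the sums were 1837, 841 and 479 CPM in MAR1-labelled libraries 1, 2 and 3, against 1181 to 1460 CPM. Ccl6 and Ccl9 had the same order over the 3 MAR1-labelled libraries as that sum, and its part in the results was not tested.

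These calls sat near the threshold. In cKO against fl/fl skin the Ccl6 call was lost without any cKO or fl/fl library, MAR1-labelled library 2 or untreated library 2 (adjusted p 0.066 to 0.14), and the Ccl9 call without any 1 library other than MAR1-labelled libraries 1 and 3 (0.053 to 0.31). Without fl/fl libraries 1 and 2 together Ccl6 was at -1.25 (0.31) and Ccl9 at -0.68 (0.49). In MAR1-labelled against isotype skin the Ccl6 call was lost without MAR1-labelled library 2 or 3, isotype library 1 or 3, cKO library 2 or untreated library 2 (0.051 to 0.15), and the Ccl9 call without any 1 library other than MAR1-labelled library 1 and isotype library 2 (0.052 to 0.18). Without MAR1-labelled library 1 they were at -2.38 and -1.78. With median-ratio (RLE) scaling, which moves the median of all genes by 0.57 in this comparison, Ccl6 was at -0.91 (0.11) and Ccl9 at -0.59 (0.22), and DESeq2 called neither (0.097 and 0.22). Fits of only the groups compared lost Ccl6 and Ccl9 in MAR1-labelled against isotype skin (0.067 and 0.08) and Ccl9 in cKO against fl/fl skin (0.086). Against untreated skin the Ccl6 call was lost without MAR1-labelled library 2 (-1.28, 0.13), untreated library 2 (0.17) or cKO library 2 (0.052) and was at -2.87 without MAR1-labelled library 1, and it was lost in a fit of only the groups compared (0.11) and with the untreated libraries summed (0.078).

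**Figure D4:**
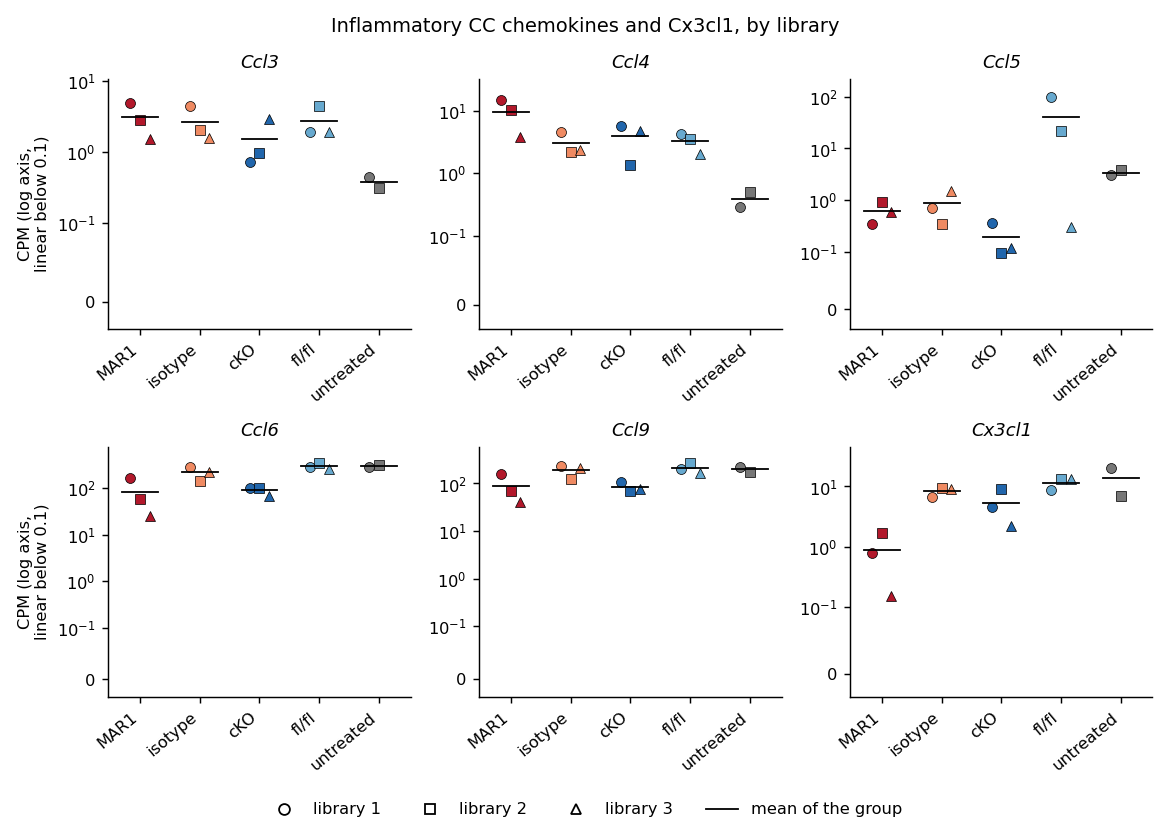
Level (y axis, CPM on a log axis that is linear below 0.1) of 5 inflammatory CC ligands and Cx3cl1 in the 14 libraries by group (x axis); symbols number the libraries and lines are group means. Ccl5 spreads from 0.296 to 101 CPM within the fl/fl group, and Cx3cl1 is lowest in MAR1-labelled skin, at 0.15 to 1.71 CPM.

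Ccl5, a product of T cells and natural killer cells, and Ccl22, a product of dendritic cells that binds CCR4 on type 2 T cells, were high in fl/fl libraries 1 and 2 alone. Ccl5 measured 0.344, 0.906 and 0.601 CPM in MAR1-labelled, 0.714, 0.346 and 1.52 CPM in isotype, 0.355, 0.0981 and 0.118 CPM in cKO, 101, 21.6 and 0.296 CPM in fl/fl, and 3.01 and 3.75 CPM in untreated libraries. Ccl22 measured 3.27, 4.83 and 2.71 CPM in MAR1-labelled, 8.02, 7.7 and 8.53 CPM in isotype, 10.5, 5.49 and 5.83 CPM in cKO, 262, 59.6 and 5.14 CPM in fl/fl, and 14.1 and 4.49 CPM in untreated libraries. In both genes fl/fl library 3 lay within or below the other groups. The fitted log2 fold change in cKO against fl/fl skin was -7.69 ± 1.55 for Ccl5 (adjusted p = 0.0059) and -3.90 ± 0.97 for Ccl22 (0.016), with groups that overlap. Without fl/fl libraries 1 and 2 these were -0.33 (0.92) and 0.79 (0.51). In fl/fl against isotype skin, a comparison of the control groups of the injected and uninjected experiments, Ccl5 had 5.57 ± 1.37 (0.041) and Ccl22 3.75 ± 0.96 (0.044), and without those libraries -1.85 (0.62) and -0.95 (0.6).

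Lymphocyte transcripts stood beside these values. The 8 B cell markers summed to 18.4 to 56.9 CPM in cKO libraries, against 2199, 447 and 4.7 CPM in fl/fl libraries 1, 2 and 3, and to 9.91 to 14.1 CPM in isotype libraries. The 10 T cell markers summed to 55.7 to 116 CPM in cKO libraries, against 1324, 220 and 17.6 CPM in the fl/fl libraries, and to 31 to 42.3 CPM in isotype libraries. Of these lists 5 B cell and 5 T cell markers fell in cKO against fl/fl skin. Ccr7, the receptor of Ccl19 and Ccl21 on lymph node cells, measured 176, 33 and 0.768 CPM in fl/fl libraries, against 2.77, 0.836 and 1.87 CPM in isotype libraries. The part of the lymphoid, salivary and muscle transcripts in the ligand results was not tested. Leaving out single libraries, the Ccl5 call in cKO against fl/fl skin held, at -5.40 without fl/fl library 1, -8.53 without cKO library 1 and -6.90 without cKO library 2. The Ccl22 call was lost without fl/fl library 1 (-1.76, 0.12), cKO library 2 (-3.27, 0.056) or cKO library 3 (0.072), and in a fit of only the groups compared (0.089). Both calls in fl/fl against isotype skin were lost without fl/fl library 1 (Ccl5 3.23, 0.15; Ccl22 1.60, 0.22) or 2, any isotype library, any MAR1-labelled library or cKO library 1 (adjusted p 0.05 to 0.22), with Ccl5 at 6.26 without isotype library 3, and both were lost with no filter (0.067 and 0.086) or only the groups compared (0.11 each). The difference between the cKO effect and the MAR1 effect on Ccl5 was -7.20 ± 1.94 (0.042) and 0.18 (1) without fl/fl libraries 1 and 2. It was lost without MAR1-labelled library 2 or 3, or any isotype or cKO library, or fl/fl library 1 or 2 (0.051 to 0.1), and without fl/fl library 1 it was -4.89, without MAR1-labelled library 2 -6.36, without isotype library 3 -7.90, and without cKO libraries 1 and 2 in turn -8.05 and -6.39.

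**Figure D5:**
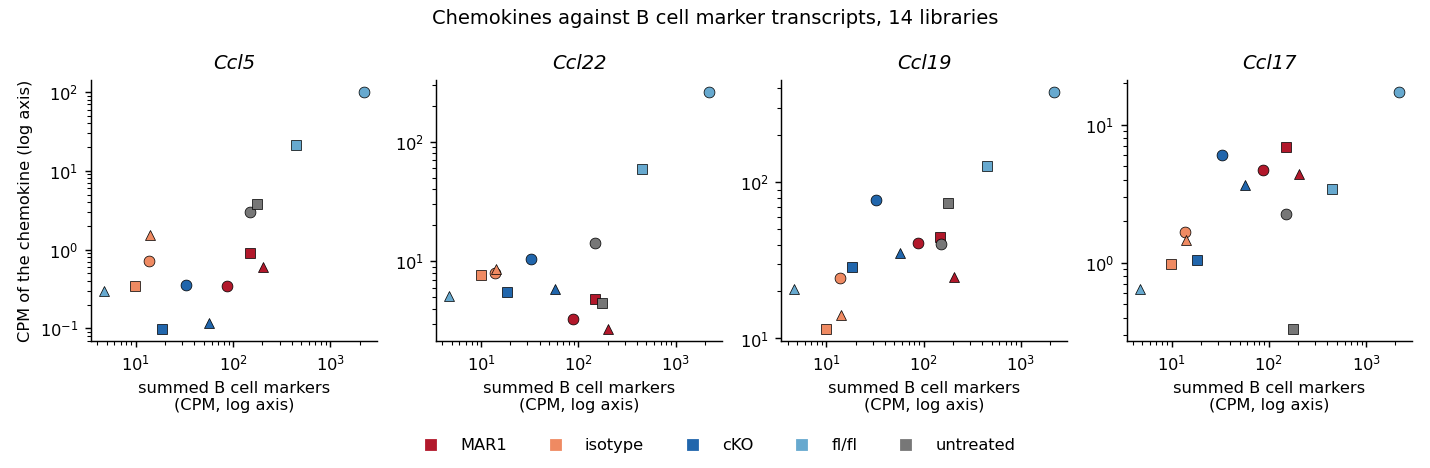
Level of Ccl5, Ccl22, Ccl19 and Ccl17 (y axes, CPM, log) against the summed level of 8 B cell markers (x axes, CPM, log) in the 14 libraries, coloured by group, with circles, squares and triangles for libraries 1, 2 and 3. The fl/fl libraries 1 and 2 stand at the upper right with B cell sums of 2199 and 447 CPM, and fl/fl library 3 at 4.7 CPM on the left.

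The remaining ligands linked to type 2 responses gave no call in the edgeR test over all groups. Ccl17, which shares CCR4 with CCL22, ranged over 4.36 to 6.95 CPM in MAR1-labelled, 0.98 to 1.66 CPM in isotype, 1.05 to 6.06 CPM in cKO, 0.65 to 17.3 CPM in fl/fl and 0.332 to 2.25 CPM in untreated libraries. All 3 MAR1-labelled libraries were above all isotype libraries (log2 fold change 1.97 ± 1.02, adjusted p = 0.12), a difference that DESeq2 and a fit of only those groups called. DESeq2 also called Ccl17 in MAR1-labelled against untreated skin. Ccl1, the ligand of CCR8, ranged over 0 to 1.83 CPM and was called in MAR1-labelled against isotype and untreated skin only without MAR1-labelled library 1. Ccl26 had no counts, which allows up to 0.0532 to 0.451 CPM in a library at 3 counts, for counting error only.

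Cx3cl1, the membrane-anchored chemokine of epithelium and endothelium that binds CX3CR1, was lower in MAR1-labelled skin. It measured 0.773, 1.71 and 0.15 CPM in MAR1-labelled, 6.62, 9.37 and 9.03 CPM in isotype, 4.61, 8.93 and 2.18 CPM in cKO, 8.6, 13.1 and 13.2 CPM in fl/fl, and 20.5 and 6.95 CPM in untreated libraries. The MAR1-labelled values are 9, 17 and 1 counts and lay under all other libraries. The log2 fold change was -3.20 ± 0.73 against isotype skin (9.18-fold lower, adjusted p = 0.0033) and -3.92 ± 0.78 against untreated skin (0.0015). Both calls held without any 1 library, with -3.99 against isotype skin without MAR1-labelled library 2 and -2.94 against untreated skin without untreated library 1. With the receptor gene share in the fit they were -0.44 (0.96) and 0.12 (1). Ccl20, the epithelial ligand of CCR6, ranged over 9.17 to 11.9 CPM in MAR1-labelled, 3.95 to 7.8 CPM in isotype, 0 to 8.24 CPM in cKO, 2.43 to 5 CPM in fl/fl and at most 1.87 CPM in untreated libraries, and was not called by the edgeR test over all groups (0.96 ± 1.05 in MAR1-labelled against isotype skin, adjusted p = 0.45). Fits of only the groups compared called it in MAR1-labelled skin against isotype and against untreated skin, and DESeq2 against untreated skin. Cxcl16, the membrane-anchored ligand of CXCR6, measured 75.4, 57.8 and 40.9 CPM in MAR1-labelled, 55.2, 46.3 and 65.2 CPM in isotype, 48.1, 60.3 and 58.3 CPM in cKO, 83.7, 44.8 and 41.7 CPM in fl/fl, and 57.1 and 41.8 CPM in untreated libraries. Its values overlapped in all groups, and DESeq2 alone called it, in MAR1-labelled against untreated skin (edgeR 0.06 ± 0.32 in MAR1-labelled against isotype skin, -0.03 ± 0.32 in cKO against fl/fl skin). Cxcl17, a mucosal chemokine, ranged over 0 to 1.5 CPM without a call.

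Pf4, the platelet factor that macrophages also express, measured 131, 62.3 and 25.2 CPM in MAR1-labelled, 80.5, 39.9 and 64.5 CPM in isotype, 48.2, 25.7 and 56 CPM in cKO, 115, 68.9 and 60.5 CPM in fl/fl, and 85.9 and 100 CPM in untreated libraries. It had the same order over the MAR1-labelled libraries as Ccl6 and Ccl9, and no comparison called it (-0.91 ± 0.50 in cKO against fl/fl skin, adjusted p = 0.2). Xcl1, the lymphotactin of T cells and natural killer cells that binds XCR1 on dendritic cells, measured 0.0859, 0 and 0 CPM in MAR1-labelled, 0.257, 0 and 0.0877 CPM in isotype, 0, 0.229 and 0.412 CPM in cKO and 0.874, 0 and 0.0887 CPM in fl/fl libraries, against 3.62 and 4.06 CPM in untreated libraries. All 12 treated libraries were under both untreated ones. It was called in MAR1-labelled skin (log2 fold change -6.68 ± 2.33, adjusted p = 0.03), on 1, 0 and 0 counts, against 204 and 171 counts in untreated libraries. That call was lost without any MAR1-labelled or untreated library (0.053 to 0.11), at -9.92 without MAR1-labelled library 1 and -5.78 without MAR1-labelled library 2, and with the untreated libraries summed (0.078). In isotype, cKO and fl/fl skin the values were -5.01 (0.2), -4.17 (0.17) and -3.57 (0.33).

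Most calls among the receptors of these ligands were in MAR1-labelled skin. Of 19 chemotactic receptors 17 were tested, leaving out Ccr1l1 and Cxcr1. In MAR1-labelled against isotype skin 9 rose and 0 fell, where 22.6% of all genes rose and 26.5% fell, and among them were Ccr2, Ccr4, Ccr6, Ccr9, Cx3cr1, Cxcr2, Cxcr5 and Xcr1. Cxcr2, the neutrophil receptor of Cxcl1 and Cxcl5, measured 285, 456 and 549 CPM in MAR1-labelled libraries, against 34.1, 23.5 and 31 CPM in isotype libraries (log2 fold change 3.86 ± 0.93, adjusted p = 0.0049). Xcr1 measured 59.4, 87.7 and 117 CPM against 6.36, 4.03 and 6.11 CPM (16-fold higher, 0.0024), and Ccr9 35.1, 49.9 and 59.4 CPM against 6.11, 5.5 and 6.78 CPM (2.97 ± 0.52, 0.00071). These 3 receptors had the same order over the MAR1-labelled libraries as the olfactory and vomeronasal share of counts, which was 3.88, 7.55 and 9.38% in libraries 1, 2 and 3, and the part of that share was not tested. In cKO against fl/fl skin Cxcr2 and Xcr1 rose, and Ccr7, Cxcr3 and Cxcr4 fell, where 12.7% of all genes rose and 5.97% fell. Cxcr2 measured 99.2, 36.6 and 161 CPM in cKO libraries, against 7.89, 13.6 and 9.81 CPM in fl/fl libraries (3.24 ± 0.90, 0.026). The receptor share was 1.49, 0.467 and 2.58% in those cKO libraries. Against untreated skin Ccr9, Cxcr2, Cxcr5 and Xcr1 rose and Cxcr3 fell in the MAR1-labelled group. In isotype, cKO and fl/fl skin the edgeR test over all groups called 0 receptors. There 4, 6 and 4 had an unadjusted p under 0.05, as had 3759, 6014 and 3837 of all 20939 genes. In fl/fl against isotype skin Ccr7 rose. The difference between the cKO effect and the MAR1 effect was called for Ccr7 and Cxcr4, both lower.

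The atypical receptors, which bind and remove chemokines without drawing cells, gave calls in 1 direction. All 5 tested (Ackr1, Ackr2, Ackr3, Ackr4 and Ccrl2) fell in MAR1-labelled skin against isotype and against untreated skin, where 26.5% and 25.9% of all genes fell. Of 8 endothelial markers 4 fell (Cdh5, Egfl7, Kdr and Tie1) and Pecam1 rose in both comparisons, with a summed level of 1068 to 1412 CPM in MAR1-labelled libraries, against 379 to 442 CPM in isotype libraries and 174 to 488 CPM in untreated libraries, and the part of these cells was not tested. The median log2 fold change of these 8 markers was -0.84 against isotype and -1.18 against untreated skin, opposite in direction to the sum. Ackr1, on the endothelium of venules, measured 4.98, 4.63 and 3.76 CPM in MAR1-labelled libraries, against 28.9, 24.9 and 29.9 CPM in isotype libraries (log2 fold change -2.64 ± 0.44, adjusted p = 0.00053). Ackr3, a scavenger of CXCL12, measured 16.8, 12.7 and 8.87 CPM in MAR1-labelled, 30.1, 28.4 and 26.6 CPM in isotype, 17.6, 20.1 and 11.1 CPM in cKO, 25.8, 54 and 44.3 CPM in fl/fl, and 105 and 64.6 CPM in untreated libraries. It fell in isotype (-1.58 ± 0.38, 0.038), cKO (-2.38 ± 0.38, 0.0068) and MAR1-labelled skin (-2.72 ± 0.39, 0.00025) against untreated skin, and in cKO against fl/fl skin (-1.35 ± 0.35, 0.017). Ackr4, a scavenger of CCL19, CCL21 and CCL25, measured 8.51, 3.02 and 4.51 CPM in MAR1-labelled, 11.9, 15.9 and 14.4 CPM in isotype, 12.4, 23.4 and 7.83 CPM in cKO and 6.03, 11.2 and 12.7 CPM in fl/fl libraries, against 63.4 and 38.7 CPM in untreated libraries. It fell against untreated skin in fl/fl (-2.36 ± 0.52, 0.036), cKO (-1.81 ± 0.51, 0.049) and MAR1-labelled skin (-3.25 ± 0.53, 0.00047).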

How the data were processed

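Polyadenylated RNA of neck skin was sequenced in 14 libraries. The authors deposited 1 table of values per gene symbol, read here as estimated counts since they hold decimals and sum to a different total in each library. Salmon 1.2.1, DESeq2 1.44.0 and the build GRCm39 appear, with no role given, in the submitters' processing notes. One row without a gene name was left out (0.0137 to 0.921% of counts). Counts were rounded and fitted in edgeR 4.0.16 (R 4.3.3): TMM scaling, filterByExpr, robust quasi-likelihood fits of 5 group means over 14 libraries with 9 residual degrees of freedom, and Benjamini-Hochberg adjustment over 20939 genes. CPM values use TMM-scaled library sizes. No label says that libraries of a group came from separate litters or cages, so p-values measure the spread between these libraries. The ligands and all gene lists were chosen with earlier results of these data known. Ligands called in any comparison, or averaging 10 CPM or more, have their per-library values printed, with ranges for the others; called receptors are named, except 1 that is not reported here. Alternatives were RLE scaling, DESeq2 1.42.0, no filter, only the groups compared, a replicate block, the receptor gene share as a covariate, summed untreated libraries, fl/fl libraries 1 and 2 left out and each library left out. Summing near-identical copies was chosen after seeing the data. Floors of 3 counts cover counting error only. Motifs were searched in Python 3.11.15, and the Ccl27 windows aligned with Biopython 1.88. No 2 replicates agreed within sampling noise (chi-square per degree of freedom 17.3 to 985).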

Additional observations from a re-analysis of the deposited data

Results flagged for a closer look

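Several ligands had effects that differed between the study's groups. The fl/fl and isotype groups are both MC903-treated controls, and between them Ccl19 (log2 fold change 3.40), Ccl22 (3.75) and Ccl5 (5.57) were higher in fl/fl skin in the edgeR quasi-likelihood test (adjusted p = 0.039, 0.044 and 0.041). Fl/fl libraries 1 and 2 carried these values, and without both the values were 0, -0.95 and -1.85. The effect of the cKO (against fl/fl) minus the effect of MAR1 (against isotype) was -7.20 for Ccl5, 2.15 for Cxcl14 and -5.86 for Cxcl9 (adjusted p = 0.042, 0.048 and 0.048). Without fl/fl libraries 1 and 2 these were 0.18, 2.11 and 2.64 (adjusted p = 1, 0.17 and 0.29). The part of the lymphoid transcripts of those libraries in these values was not tested.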

How the results depend on the processing

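Of the alternative values, 602 kept direction and side of the threshold, 274 kept direction and lost the call, and 7 reversed. The reversals without fl/fl libraries 1 and 2 were Ccl22 in cKO against fl/fl (0.79) and in fl/fl against isotype skin (-0.95), Ccl5 in fl/fl against isotype skin (-1.85), and the difference of effects for Ccl5 (0.18) and Cxcl9 (2.64). With the receptor gene share as a covariate, Cx3cl1 in MAR1-labelled against untreated skin (0.12) and Cxcl1 in MAR1-labelled against isotype skin (0.62) reversed. The causes were not tested.

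The number of ligands called moved as follows. With near-identical copies summed, 1 rose and 1 fell in isotype and in fl/fl against untreated skin. In that setting 3 rose and 6 fell in MAR1-labelled against untreated skin, and 2 rose and 2 fell in cKO against untreated skin. It gave 3 risen and 5 fallen in MAR1-labelled against isotype skin. In MAR1-labelled against isotype skin 9 became 0 with the covariate, and single libraries left out gave 2 to 9. In MAR1-labelled against untreated skin 11 became 0 with the covariate and 7 with the untreated libraries summed (6 to 13). In cKO against fl/fl skin 4 became 2 with only the groups compared and 0 with the covariate (1 to 4), and without fl/fl libraries 1 and 2 there were 3, all higher in cKO skin (Ccl21f, Cxcl9 and Cxcl10) and 0 of them shared with the 4. In cKO against untreated skin 5 became 8 with DESeq2 and 0 with only the groups compared, the covariate or summed untreated libraries (0 to 6). In isotype against untreated skin 3 became 8 with DESeq2, 10 with only the groups compared and 0 with summed untreated libraries (2 to 5). In fl/fl against untreated skin 3 became 9 with DESeq2, 0 with only the groups compared and 6 without fl/fl libraries 1 and 2 (1 to 4). In fl/fl against isotype skin 3 became 0 with no filter, only the groups compared, the covariate, or without fl/fl libraries 1 and 2 (0 to 5). For the difference of effects 3 became 1 with RLE scaling, 8 with DESeq2, 1 with no filter, and 0 with only the groups compared or without fl/fl libraries 1 and 2 (0 to 6).

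Over all genes the count of calls changed by more than 1.5 times under these settings and, below, with single libraries left out: cKO against fl/fl 3906, against 5995 (DESeq2), 1409 (only the groups compared), 14 (covariate) and 656 (without fl/fl libraries 1 and 2); cKO against untreated 1428, against 4879, 168, 125 (covariate) and 70 (untreated summed); isotype against untreated 644, against 2214, 3553 and 50 (untreated summed). It was 360 in fl/fl against untreated skin, against 2129, 0, 549 (untreated summed) and 982 (without fl/fl libraries 1 and 2), and 1094 in fl/fl against isotype skin, against 3396, 455, 63 (covariate) and 1. MAR1-labelled against isotype had 10270, against 0 with the covariate, and against untreated 10343, against 3 and 6553 (untreated summed). The difference of effects had 1667, against 904 (RLE), 3731 (DESeq2), 998, 3782 (covariate) and 7. Leaving out single libraries gave 1958 (without cKO library 3) to 4412 in cKO against fl/fl, 107 (untreated 1) to 2233 (fl/fl 3) in cKO against untreated, 108 (isotype 1) to 1320 (fl/fl 3) in isotype against untreated, 65 (untreated 2) to 736 (untreated 1) in fl/fl against untreated, 0 (fl/fl 2) to 3176 (fl/fl 3) in fl/fl against isotype, 7341 to 10772 in MAR1-labelled against isotype, 6396 (untreated 1) to 10754 in MAR1-labelled against untreated skin, and 1 (isotype 1) to 4863 (fl/fl 3) for the difference of effects.

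The replicate numbers showed no sign of pairing the samples. Over 26 same-numbered pairs the correlation of deviations was -0.398 to 0.409 (median -0.041, 6 over 0.1). Over the 52 other pairs it was -0.381 to 0.398 (median 0.017, 15 over 0.1). A pairing that these numbers do not carry was not tested. With a replicate block the ligands called were 2 in isotype, 2 in fl/fl, 12 in MAR1-labelled and 0 in cKO against untreated skin, 9 in MAR1-labelled against isotype, 4 in cKO against fl/fl, 0 in fl/fl against isotype skin and 0 for the difference of effects; over all genes the block gave 253, 224, 383 (cKO against untreated), 175 (fl/fl against isotype) and 537 (difference of effects). The MAR1-labelled libraries, with totals of 5.73 to 10.6 (in 1e6 counts), set the limit for ligands under 1 CPM there.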
